A study of Homo sapiens with 6 samples.

Results

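The ZNF genes of the SW480 transcriptome were taken as every row of the deposited mRNA expression table whose symbol is ZNF followed by a digit. There were 219 such genes among the 8529 in the table. SW480 is an established line of human colorectal cancer cells, carried here with the wild-type genotype in every culture. The cells grew for 72 h on hydrogels of 2 kPa, the soft matrix, or 25 kPa, the stiff matrix, with 3 libraries at each stiffness, and the study asked how the stiffness of the matrix changes gene expression. The values were FPKM, read fragments scaled by the length of the transcript and the depth of the library. The 3 libraries of a stiffness came from wells of a single cell line, so the p-values given here measure the spread between these libraries, which may be technical.

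ZNF proteins carry zinc fingers of the C2H2 type, small folds held by a zinc ion that usually stand in a row and read DNA. Many of them begin with a KRAB box, which recruits the corepressor TRIM28 and through it histone methyltransferases and heterochromatin proteins, and a large share of the KRAB proteins are known to silence transposable elements. Others have no KRAB box and serve in ribosome assembly, mitosis or the activation of single promoters. The KRAB genes arose largely by tandem duplication and stand in clusters, most of them on chromosome 19.

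A KRAB box was found in the translated sequence of 139 members and not in the other 80. The members had between 0 and 29 complete C2H2 fingers, with a median of 12 for the genes with a KRAB box and of 6.5 for those without. On chromosome 19 lay 110 members (50.2%), against 6.42% of the other genes in the table, and 89 of these 110 had a KRAB box. Chromosome 16 held 21 members and chromosome 7 held 17. RefSeq lists 3 members, ZNF705E, ZNF781 and ZNF286B, as pseudogenes, and ZNF816-ZNF321P is a readthrough of neighbouring genes.

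The promoters of the 4 members with the smallest p-values are given here, because these genes carry the clearest differences between the matrices and differ from each other in their promoter letters. Each is the 250 bases before the transcription start in RefSeq, build GRCh38.p14, read on the strand of the gene. Capitals mark matches on either strand to the ETS core CCGGAAG, the CCAAT box or the letters TTCTGGGA, which form the middle of the site known for the activator ZNF143. ZNF224 lies on the forward strand at chr19:44094111-44094360, ZNF35 on the forward strand at chr3:44648482-44648731, ZNF22 on the forward strand at chr10:45000673-45000922 and ZNF799 on the reverse strand at chr19:12401272-12401521.
ZNF224: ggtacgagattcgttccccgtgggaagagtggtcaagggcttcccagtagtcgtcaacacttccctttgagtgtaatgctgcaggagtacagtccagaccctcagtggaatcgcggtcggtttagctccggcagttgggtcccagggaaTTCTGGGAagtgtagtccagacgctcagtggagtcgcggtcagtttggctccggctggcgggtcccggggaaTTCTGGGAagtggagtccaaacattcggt
ZNF35: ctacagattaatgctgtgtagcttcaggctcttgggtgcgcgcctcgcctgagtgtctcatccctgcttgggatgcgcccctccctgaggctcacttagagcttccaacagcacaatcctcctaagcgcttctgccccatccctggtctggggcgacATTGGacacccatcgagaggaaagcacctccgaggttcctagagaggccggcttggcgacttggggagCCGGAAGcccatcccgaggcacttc
ZNF22: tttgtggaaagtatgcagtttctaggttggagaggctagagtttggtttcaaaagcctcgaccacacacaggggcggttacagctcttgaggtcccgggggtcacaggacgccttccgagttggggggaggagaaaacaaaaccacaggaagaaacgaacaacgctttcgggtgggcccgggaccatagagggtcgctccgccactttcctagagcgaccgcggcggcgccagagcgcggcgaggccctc
ZNF799: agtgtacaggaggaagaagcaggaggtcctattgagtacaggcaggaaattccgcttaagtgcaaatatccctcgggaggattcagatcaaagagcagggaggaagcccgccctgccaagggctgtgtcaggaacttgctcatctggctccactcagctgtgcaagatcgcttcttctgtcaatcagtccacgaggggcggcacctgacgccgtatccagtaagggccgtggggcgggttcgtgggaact

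The ZNF224 promoter held TTCTGGGA at 2 places, 101 and 29 bases before the start, and 15 CpG pairs. That of ZNF35 held a CCAAT box 93 bases before the start on the reverse strand and an ETS core 25 bases before it. In the ZNF22 and ZNF799 windows none of these 3 motifs was present, which says nothing of sites outside those windows. A RefSeq promoter was found for 185 of the 219 members and for 6454 genes of the table in all. Of the ZNF promoters, 32.4% held the ETS core, against 16.6% of all promoters of the same length, with 32.0% in the KRAB genes and 33.3% in the others. A CCAAT box was present in 47.6% of the ZNF promoters, against 35.1% of all, with 57.4% in the KRAB genes and 28.6% in the others. TTCTGGGA, a motif chosen after the ZNF224 promoter was read, occurred in 17 ZNF promoters (9.19%), against 2.36% of all. For the GC box GGGCGG the shares were 69.7% and 68.6%, for TATAAA 1.62% and 5.76% and for the E box CACGTG 5.95% and 8.79%. None of these shares was tested, and a match is a run of letters and not a bound site.

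Most ZNF genes were weakly expressed in SW480 cells. Their mean FPKM over the 6 libraries ran from 0.0433 for ZNF793 to 53.6 for ZNF593, with a median of 1.15, against a median of 2.70 for the other genes. A mean of at least 1 FPKM was reached by 124 members (56.6%), against 68.4% of the other genes. In all 6 libraries, 85 members stood at 1 FPKM or more and 62 stood under it, and 4 members were listed at 0.01 FPKM, the lowest value in the table, in at least 1 library. Fewer cells expressing a gene and less RNA per cell cannot be told apart in bulk libraries.

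Genes with a KRAB box were listed at lower levels than those without. Of the genes with a KRAB box 64 of 139 (46%) reached a mean of 1 FPKM, and of those without 60 of 80 (75%) did. Among the 11 members at a mean of 10 FPKM or more, 10 had no KRAB box. The KRAB gene with the highest mean was ZNF3, at 10.6 FPKM.

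The 5 members with the highest means had no KRAB box and together made up 28.9% of the summed FPKM of all members. ZNF593, which takes part in the maturation of the large ribosomal subunit, was listed at 59.32, 42.94 and 63.18 FPKM at 2 kPa and at 44.48, 63.52 and 48.15 FPKM at 25 kPa. ZNF428 had 39.16, 38.82 and 48.01 FPKM at 2 kPa and 29.77, 44.01 and 38.36 FPKM at 25 kPa. In both genes the libraries of the 2 stiffnesses overlapped. ZNF207, known as BuGZ, a spindle protein that loads BUB3 onto kinetochores, gave 39.93, 35.80 and 36.23 FPKM at 2 kPa and 37.53, 35.23 and 36.34 FPKM at 25 kPa. ZNF511 ranged from 28.37 to 38.80 FPKM at 2 kPa and from 33.10 to 42.02 FPKM at 25 kPa. ZNF622, another factor of large ribosomal subunit maturation, gave 28.89, 25.98 and 31.64 FPKM at 2 kPa and 24.32, 27.22 and 24.38 FPKM at 25 kPa. In the order of their means, ZNF593, ZNF428, ZNF207, ZNF511 and ZNF622, each gene's range over the 6 libraries overlapped that of the next.

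No ZNF gene passed the test between the matrices. With limma on log2(FPKM + 1) and Benjamini-Hochberg adjustment over all 8529 genes, 0 of 219 members had an adjusted p under 0.05, where 10 genes of the table did (0.117%, with 0.0703% higher and 0.0469% lower at 25 kPa), and the smallest adjusted p of a member was 0.205, for ZNF224. At an unadjusted p under 0.05 stood 7 members (3.20%), against 10.2% of all genes. All 7 were higher at 25 kPa, which 6.96% of all genes were at that level, and 0 were lower, against 3.19% of all genes. By a plainer measure, 17 members had all 3 libraries at 25 kPa above all 3 at 2 kPa (11.2% of all genes did) and 2 members had the reverse (4.78% of all genes). The 19 members without overlap were 8.68% of the ZNF genes, against 16% of all genes. By both measures the share among ZNF genes lay below that of the whole table, and this difference was not tested.

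**Figure D1:**
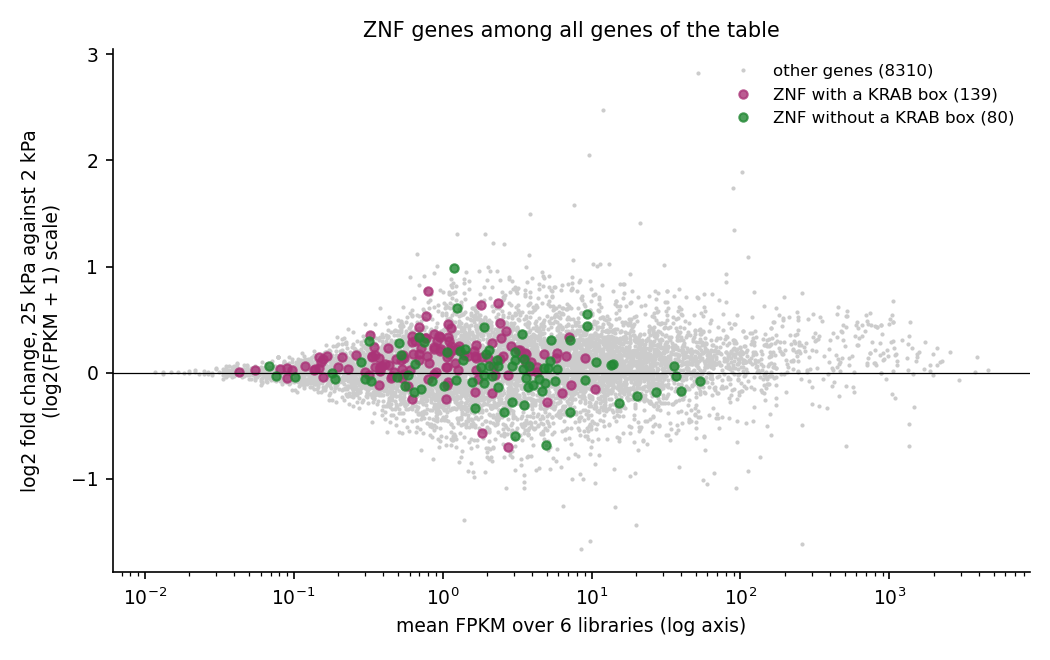
The log2 fold change of each gene at 25 kPa against 2 kPa is plotted against its mean FPKM over the 6 libraries on a log axis, with 139 KRAB genes in purple, 80 ZNF genes without a KRAB box in green and 8310 other genes in grey. The ZNF genes lie within the cloud of the other genes and most of them stand above 0, among them 113 of the 139 KRAB genes.

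The clearest single difference was in ZNF224, a KRAB protein first described as a repressor of the aldolase A gene. It was listed at 0.19, 0.11 and 0.72 FPKM at 2 kPa and at 1.10, 1.36 and 1.28 FPKM at 25 kPa. Every stiff library lay above every soft library, and the soft libraries differed more among themselves than the stiff ones did. The log2 fold change was 0.77 (SE 0.187, adjusted p = 0.205), and at this low level it rests on the pseudocount of 1, with 1.87 at a pseudocount of 0.1 and 2.27 at 0.01. ZNF35, which has no KRAB box, gave 0.12, 0.38 and 0.93 FPKM at 2 kPa and 1.44, 2.64 and 1.64 FPKM at 25 kPa. Its log2 fold change of 0.99 (SE 0.250, adjusted p = 0.218) was the highest among the members, again without overlap, and became 2.03 and 2.35 at those pseudocounts.

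ZNF22 and ZNF799 had tight groups. ZNF22, whose mouse counterpart is known from tooth development, gave 7.90, 7.43 and 7.92 FPKM at 2 kPa and 10.48, 10.32 and 11.99 FPKM at 25 kPa, a log2 fold change of 0.44 (SE 0.139, adjusted p = 0.322). ZNF799, a KRAB gene, gave 1.64, 1.34 and 1.87 FPKM at 2 kPa and 3.04, 3.06 and 3.27 FPKM at 25 kPa, a log2 fold change of 0.66 (SE 0.207, adjusted p = 0.323). In both genes the gap between the matrices exceeded the range within either. Of the 50-base words of the longest ZNF799 transcript, 32.4% also occur in transcripts of other genes. Its neighbour ZNF443 shares the most of them, so reads could have been split between such genes.

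Another 3 members reached an unadjusted p under 0.05. ZNF699, a KRAB gene, gave 1.20, 1.43 and 0.96 FPKM at 2 kPa and 2.76, 1.77 and 2.82 FPKM at 25 kPa (adjusted p = 0.372). ZNF367 gave 10.01, 6.62 and 5.92 FPKM at 2 kPa and 12.57, 10.11 and 11.14 FPKM at 25 kPa (adjusted p = 0.396), so that its highest soft library nearly met its lowest stiff library. ZNF84, a KRAB gene, gave 0.68, 0.30 and 0.35 FPKM at 2 kPa and 1.16, 0.92 and 0.74 FPKM at 25 kPa (adjusted p = 0.400). Next in order came ZNF283, ZNF200 and ZNF681, with log2 fold changes of 0.24, 0.29 and 0.15 and adjusted p of 0.495, 0.495 and 0.514. Their highest library stood at 0.71 FPKM, and on the log2(FPKM + 1) scale the differences of such low genes are understated.

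**Figure D2:**
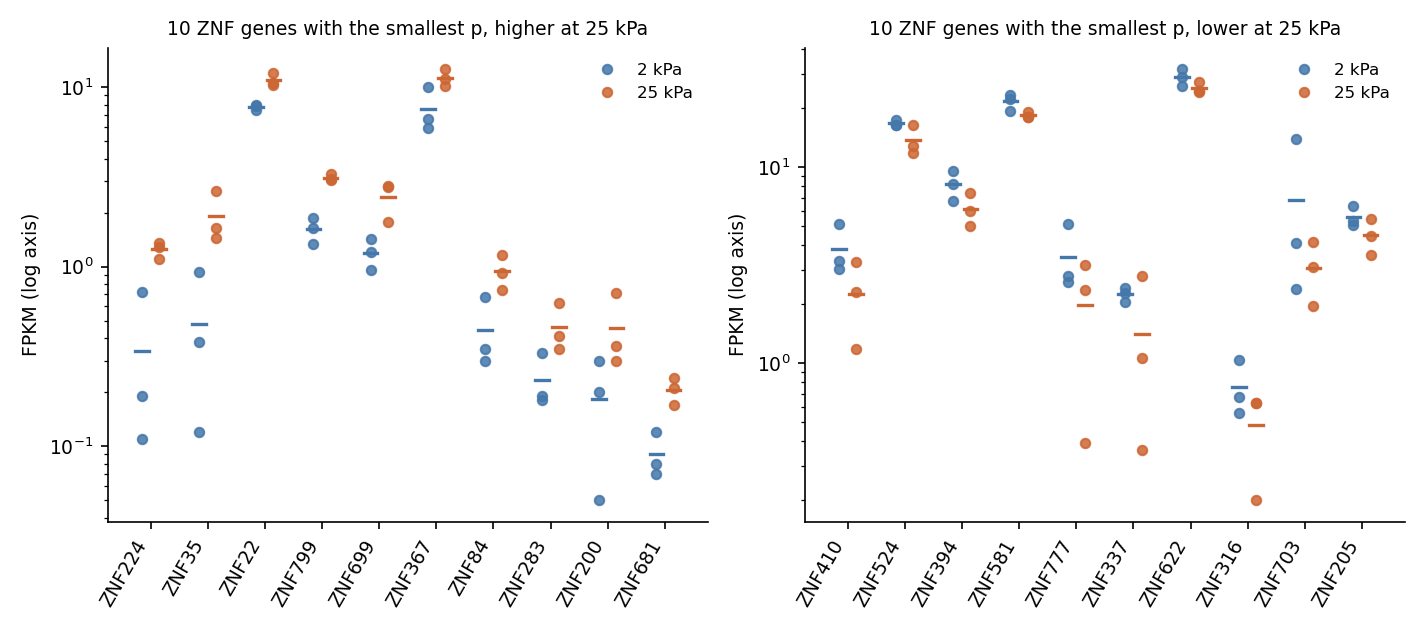
The FPKM of each library on a log axis are plotted for the 10 members with the smallest p among those higher at 25 kPa (left) and among those lower at 25 kPa (right), with blue points for 2 kPa, orange points for 25 kPa and a bar at each mean of 3 libraries. On the left the points of 9 genes do not overlap between the matrices, ZNF200 being the exception, and on the right those of ZNF524 and ZNF581 alone do not.

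At the other end, no member reached an unadjusted p under 0.05 in the downward direction. ZNF410, the activator known for its near-exclusive control of the chromatin remodeller gene CHD4, gave 5.16, 3.03 and 3.32 FPKM at 2 kPa and 3.28, 1.18 and 2.32 FPKM at 25 kPa. The groups overlapped, exons of ZNF410 lie over those of PTGR2 on the same strand, and the log2 fold change of -0.60 (adjusted p = 0.562) became -0.33 without the second 25 kPa library. ZNF524 gave 16.45, 16.42 and 17.36 FPKM at 2 kPa and 11.81, 16.41 and 12.91 FPKM at 25 kPa, a log2 fold change of -0.28 (adjusted p = 0.564). Its groups were kept apart by 0.01 FPKM in a single library. ZNF581 gave 23.39, 22.38 and 19.38 FPKM at 2 kPa and 18.03, 19.26 and 18.13 FPKM at 25 kPa, a log2 fold change of -0.22 (adjusted p = 0.590). ZNF581 shares exon sequence on the same strand with its neighbours CCDC106 and ZNF580, so its reads may not be its own alone.

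A further 3 log2 fold changes in this direction rested on 1 library. ZNF777 gave 2.78, 5.14 and 2.59 FPKM at 2 kPa and 3.18, 0.39 and 2.36 FPKM at 25 kPa, and its log2 fold change of -0.70 became -0.22 without the second 25 kPa library. ZNF337 gave 2.06, 2.29 and 2.41 FPKM at 2 kPa and 2.78, 0.36 and 1.07 FPKM at 25 kPa, and its value of -0.56 also became -0.22 without that library. ZNF703, known as an oncogene of luminal breast cancer, gave 4.09, 13.94 and 2.38 FPKM at 2 kPa and 4.14, 1.97 and 3.09 FPKM at 25 kPa. Its log2 fold change of -0.68 became -0.06 without the second 2 kPa library. ZNF394, ZNF622, ZNF316 and ZNF205 complete the 10 with the smallest p in this direction, and the groups overlapped in each of them.

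Although no member passed the test, the members as a group lay on the higher side at 25 kPa. The log2 fold change was above 0 for 153 of 219 (69.9%), with a median of 0.081, and above 0 for 59.6% of all genes, with a median of 0.048. Among the 7643 other genes within the range of mean FPKM of the members, 58.0% were higher, with a median of 0.041. These shares moved with the scaling of the libraries. With FPKM rescaled to equal library sums 57.1% of the members and 44.6% of the genes of the same range were higher, after quantile normalisation 62.1% and 50.1%, and after median centring 58.4% and 47.8%. The members stood above the genes of the same range under each of these scalings. Their median was 0.033, 0.049 and 0.029 in the same order, against -0.024, 0.000182 and -0.011 for the genes of the same range. Without the second 2 kPa library it was 0.137, and without the third 25 kPa library 0.053.

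The members were then set beside other genes of like level. Below a mean of 0.5 FPKM, 74.0% of 50 members and 53.5% of 1661 other genes were higher at 25 kPa. From 0.5 to 1 FPKM the shares were 75.6% of 45 members and 55.0% of 965 other genes, and from 1 to 2 FPKM 73.3% of 45 and 57.3% of 1097. Over these 3 ranges the members stood about as far above the other genes each time. From 2 to 5 FPKM the shares were 66.0% of 50 members and 58.6% of 1356 other genes. At 5 FPKM or more the order was turned, with 55.2% of 29 members and 62.1% of 2635 other genes. The share at an unadjusted p under 0.05 was lower in members than in other genes in every range, from 0% against 4.58% below 0.5 FPKM to 6.90% against 15.2% at 5 FPKM or more. The make-up of the members changed along these ranges, from 40 KRAB genes of 50 in the lowest to 9 of 29 in the highest. Of the KRAB genes alone 85%, 82.9%, 80% and 84% were higher in the 4 ranges up to 5 FPKM and 55.6% of 9 above it. Of the members without a KRAB box 30%, 50%, 60%, 48% and 55% were higher in the 5 ranges.

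The share of higher genes was larger among the KRAB genes. Of the 139 with a KRAB box 113 (81.3%) stood higher on the stiff matrix and their median log2 fold change was 0.137, whereas of the 80 without it 40 (50%) did, with a median of 0.015. The KRAB median was 0.063, 0.092 and 0.084 under the 3 scalings in the order given above, and it fell to 0.070 without the third 25 kPa library. Rescaled to equal sums, quantile normalised and median centred, the KRAB genes were higher in 70.5%, 72.7% and 66.2%, and those without a KRAB box in 33.8%, 43.8% and 45.0%, with their median turning to -0.059, -0.025 and -0.038. Of the 17 members without overlap that were higher at 25 kPa, 14 had a KRAB box, while ZNF35, ZNF22 and ZNF367 did not. These were 10.1% of the KRAB genes and 3.75% of those without a KRAB box, against 11.2% of all genes. Both members without overlap in the other direction, ZNF524 and ZNF581, had no KRAB box (2.5% of such members, against 4.78% of all genes). By number of fingers, 45% of the 40 members with 1 to 5 fingers were higher, 72.3% of the 65 with 6 to 10, 79.2% of the 72 with 11 to 15 and 77.8% of the 36 with 16 or more. The kinds were mixed unevenly here too, since with 1 to 5 fingers 6 of 7 KRAB genes and 12 of 33 without a KRAB box were higher. With 6 to 10 fingers the shares of the 2 kinds were 72.7% and 71.4%, with 11 to 15 fingers 87.5% and 50%.

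The KRAB genes also differ from the others in base composition, and the base composition of a gene moved with its fold change throughout the table. The median GC content of the transcripts was 44.9% for KRAB genes, 52.4% for members without a KRAB box and 51.0% for the other genes of the same range of FPKM. Across members, the log2 fold change had a Spearman correlation of -0.455 with GC content, and across the other genes of the same range of -0.354. These are correlations across genes measured in the same 6 libraries, which are no independent replicates. The correlation of the log2 fold change with the number of fingers was 0.276, fingers and GC content were themselves correlated at -0.263, and that with transcript length was 0.013.

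Within ranges of GC content the medians of members and other genes lay close to each other, whereas the shares of higher genes did so only above 46%. Under 42% GC, 87.5% of 48 members and 78.3% of 1261 other genes of the same range of FPKM were higher, with medians of 0.167 and 0.162. From 42 to 46% the shares were 86.4% of 59 and 74.0% of 1177, with medians of 0.145 and 0.124. From 46 to 54% they were 64.9% of 57 and 61.4% of 2037, with medians of 0.067 and 0.055. At 54% or more both groups had turned to the lower side, with 41.8% of 55 members and 40.9% of 2998 other genes higher and medians of -0.049 and -0.037.

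With the members split by the KRAB box, the share of higher genes was larger among KRAB genes than among other genes in each of these ranges. Under 42% GC, 91.2% of 34 KRAB genes and 78.6% of 14 members without a KRAB box were higher, and from 42 to 46% the shares were 89.4% of 47 and 75% of 12. In these ranges the members without a KRAB box lay next to the other genes, and the medians of KRAB genes were close to both. Under 42% GC the medians were 0.167 for KRAB genes, 0.163 for members without a KRAB box and 0.162 for other genes. From 42 to 46% they were 0.145, 0.1335 and 0.124 in the same order. From 46 to 54% the shares were 73.2% of 41 and 43.8% of 16, and at 54% or more 58.8% of 17 and 34.2% of 38, so that there the members without a KRAB box lay below the other genes. The median of the KRAB genes was 0.132 from 46 to 54% and 0.011 at 54% or more, where those without had -0.075 and -0.070. These differences were not tested.

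The trend over GC content was then removed from each library by a lowess curve. After this step 68.3% of the KRAB genes stood higher on the stiff matrix, with a median of 0.070, as were 61.3% of the members without a KRAB box, with a median of 0.045. The other genes of the same range of FPKM stood at 60.8% and 0.054. The gap in median between the 2 kinds of ZNF genes was smaller than with the FPKM as deposited, and the share of higher genes remained larger among the KRAB genes. Unadjusted p-values under 0.05 were then found for 6 members (2.74%, against 10.6% of all genes). Whether the trend over GC content arose in the cells or in the libraries was not tested.

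**Figure D3:**
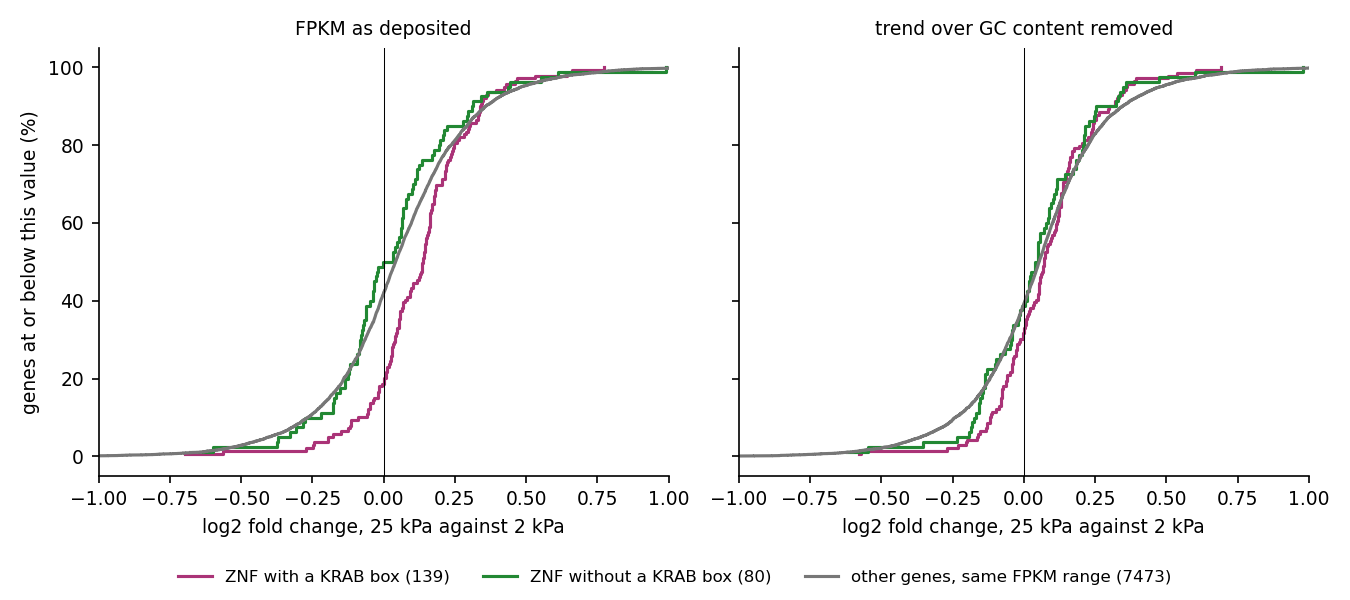
The share of genes at or below each log2 fold change is drawn for 139 KRAB genes (purple), 80 ZNF genes without a KRAB box (green) and the 7473 other genes of the same range of FPKM that have a GC content (grey), with FPKM as deposited on the left and after removal of the trend over GC content on the right. On the left the purple curve stands to the right of the others in its lower and middle part, with a median of 0.137, and on the right the 3 curves lie close together, with medians of 0.070, 0.045 and 0.054.

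The libraries of a stiffness did not move together. The median FPKM of the KRAB genes was 0.78, 0.81 and 0.69 at 2 kPa and 1.03, 0.83 and 1.21 at 25 kPa, so that the second 25 kPa library stood only just above the soft libraries. As the median deviation from each gene's mean on the log2(FPKM + 1) scale, the KRAB genes stood at -0.099, 0.026 and -0.120 in the soft libraries and at 0.069, -0.030 and 0.161 in the stiff ones. On that scale the second soft library lay above the second stiff library. The other genes of the same range with a GC content under 46% followed a like course, at -0.067, -0.004 and -0.144 and then 0.127, -0.058 and 0.171. The third 25 kPa library held the highest value of 57 of the 139 KRAB genes, and the third 2 kPa library held the lowest of 47.

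**Figure D4:**
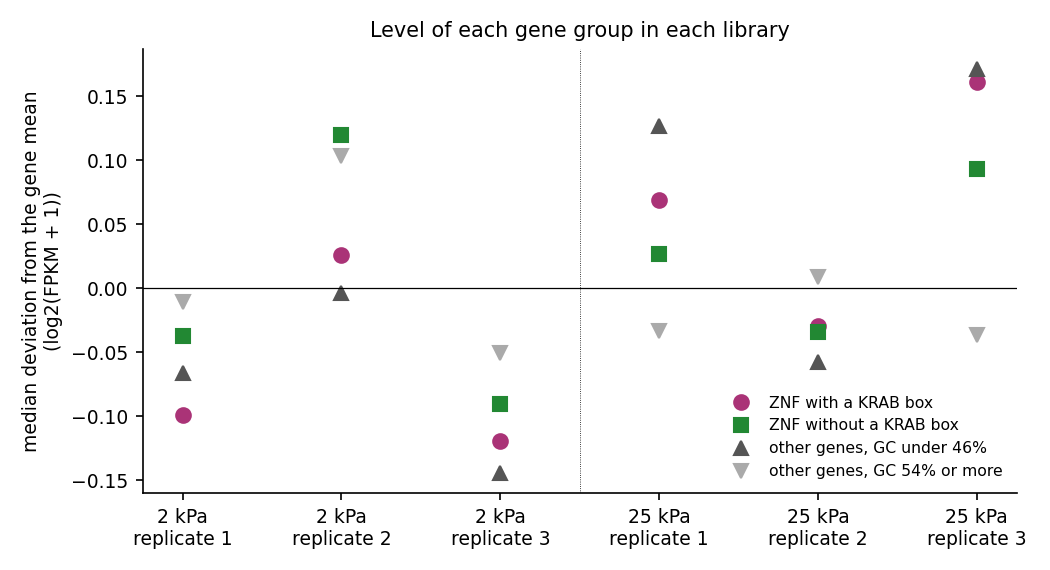
The median deviation from the gene's mean over 6 libraries, on the log2(FPKM + 1) scale, is plotted per library for KRAB genes, ZNF genes without a KRAB box and other genes of the same range of FPKM with low (under 46%) and high (54% or more) GC content. The KRAB genes are lowest in the third 2 kPa library (-0.120) and highest in the third 25 kPa library (0.161), and the 2 groups of libraries overlap.

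The number of members that separated the matrices rose most without the second library of either stiffness, and so did the share over all genes. Without the second 2 kPa library 51 members were higher at 25 kPa without overlap, and without the second 25 kPa library 54 were, against 17 with all libraries. Without the first 2 kPa or the first 25 kPa library the counts were 26 and 29. Fewer libraries overlap more rarely in any gene, and the share over all genes rose as well, to between 22.7% and 30.1%, with 27.9% of the members and 30.1% of all genes without the second 25 kPa library. At an unadjusted p under 0.05, 12 members were higher without the second 2 kPa library and 23 without the second 25 kPa library, against 7 with all libraries. Counting both directions, 5.48% of the members and 11.3% of all genes passed that level without the second 2 kPa library, and 11.9% and 11.7% without the second 25 kPa library. Without any one of the other 4 libraries the members stood below all genes, as with 2.28% and 7.47% without the third 25 kPa library. No member had an adjusted p under 0.05 in any of these fits.

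On chromosome 19 the KRAB genes lay mostly on the higher side and the other genes of the chromosome did not. Of the 89 KRAB genes there 77 (86.5%) were higher on the stiff matrix, where the median log2 fold change was 0.155, and of the 50 on other chromosomes 36 (72%) were, with a median of 0.058. Of the 21 members on chromosome 19 without a KRAB box 8 (38.1%) were higher, with a median of -0.035. The 522 other genes of that chromosome stood at 49.0% and a median of -0.005. The scalings and the GC content named above apply to these counts as well. Median GC content on chromosome 19 was 44.1% for the KRAB genes, 63.0% for the members without a KRAB box and 61.1% for the other genes. The part of GC content in these counts was not tested.

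The members on chromosome 19 fell into 8 clusters of at least 4 genes with gaps under 500 kb. In the cluster from ZNF175 to ZNF813, 19 KRAB genes in a row, 17 were higher and 2 lower, with a median of 0.183. In the last cluster of the chromosome, from ZNF805 to ZNF446, 18 of 21 were higher (median 0.132), and from ZNF101 to ZNF100 9 of 10 (median 0.134). The cluster from ZNF653 to ZNF791, which holds ZNF799, had 11 of 15 higher and the highest median of the 8, 0.215. The cluster from ZNF576 to ZNF112 held ZNF224 and, with ZNF283 and ZNF223, 3 members higher without overlap among its 9, the most of the 8 clusters. The cluster from ZNF175 to ZNF813 held 2 and that from ZNF805 to ZNF446 held 0, where 11.2% of all genes were higher without overlap. From ZNF558 to ZNF562, with ZNF699, 6 of 8 were higher. From ZNF850 to ZNF781 the 6 genes were split evenly (median -0.013).

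The cluster from ZNF524 to ZNF71 differed in kind, with 3 KRAB genes among 10. Here 6 genes were lower and 4 higher, with a median of -0.099, and both members that were lower without overlap, ZNF524 and ZNF581, lay in it. Because neighbours in these clusters are duplicates of each other, they can share reads. Of the 219 members 128 share at least 1 word of 50 bases with another gene, 28 share more than 10% of their words and 4 more than 50%, namely ZNF468, ZNF709, ZNF286B and ZNF763. ZNF35, ZNF22, ZNF699 and ZNF367 share none, and ZNF224 shares 0.458% of its words.

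**Figure D5:**
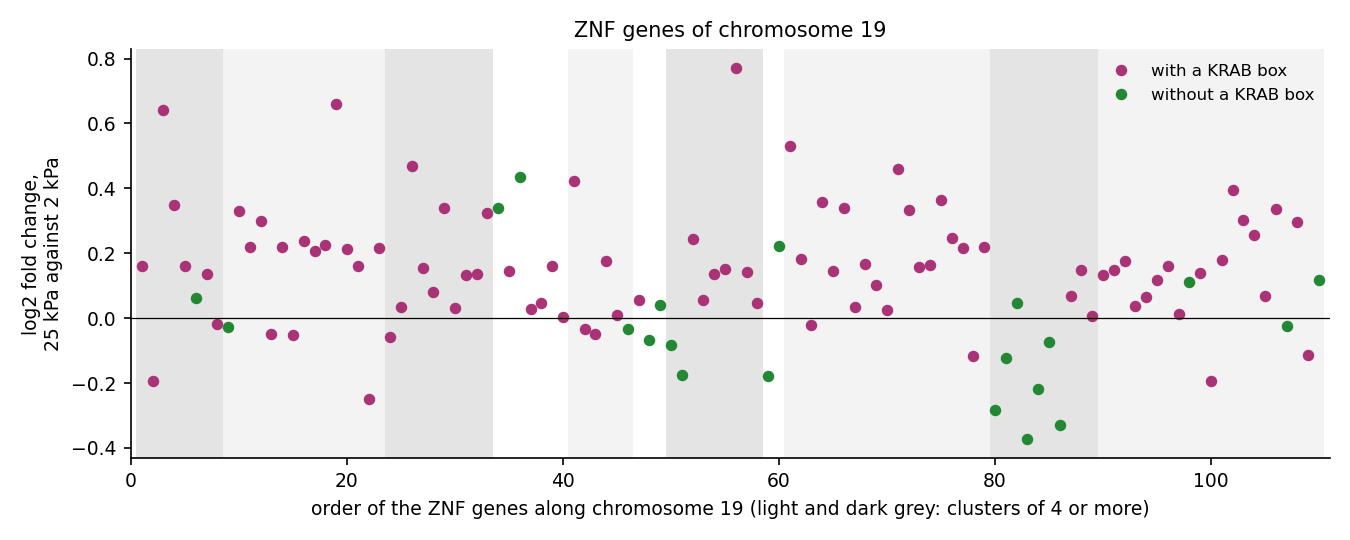
The log2 fold change at 25 kPa against 2 kPa is plotted for the 110 ZNF genes of chromosome 19 in their order along the chromosome, with KRAB genes in purple, the others in green and the 8 clusters of 4 or more genes shaded in alternating greys. Most purple points lie above 0 along the whole order (77 of 89), and a run of green points below 0 marks the cluster from ZNF524 to ZNF71.

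No member of the lists by known role had an unadjusted p under 0.05, a level that 10.2% of all genes reached. Each list had only 5 or 6 members in the table, so a count of 0 says little of these roles. Of 9 listed for RNA, ribosomes and translation 5 were in the table, of which 2 were higher at 25 kPa and 0 had an unadjusted p under 0.05. ZNF593 stood at 55.1 ± 10.7 FPKM at 2 kPa and 52.1 ± 10.1 FPKM at 25 kPa (SD, n = 3 each), and ZNF598, the ubiquitin ligase that marks collided ribosomes, at 5.06 ± 1.33 and 4.62 ± 0.778 FPKM. ZNF830 and ZNF330 also differed by less than their spread, with log2 fold changes of 0.10 and 0.08. Of 6 listed for mitosis and genome maintenance 5 were in the table, 2 of them higher and 0 with an unadjusted p under 0.05. ZNF207 stood at 37.3 ± 2.27 FPKM at 2 kPa and 36.4 ± 1.15 FPKM at 25 kPa. ZNF350, a KRAB gene also known as the BRCA1 partner ZBRK1, reached 1.09 FPKM in the third 25 kPa library and lay between 0.07 and 0.25 FPKM in the other 5, so its log2 fold change of 0.36 rested on that library.

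Of 20 promoter and chromatin regulators without a KRAB box 5 were in the table, with 2 higher. At an unadjusted p under 0.05 stood 0 of these 5, against 10.2% of all genes. Besides ZNF410 and ZNF703, ZNF148, a factor that binds GC-rich promoters, gave 4.58, 5.46 and 3.93 FPKM at 2 kPa and 6.38, 5.11 and 6.56 FPKM at 25 kPa, a log2 fold change of 0.31 (adjusted p = 0.640). ZNF687 and ZNF24 had log2 fold changes of -0.08 and 0.07. The other 15 were not analysed here.

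Of 14 KRAB or KRAB-related genes with known targets 6 were in the table, and 5 of these were higher at 25 kPa, with a median of 0.180. At an unadjusted p under 0.05 stood 0 of these 6, against 10.2% of all genes. ZNF93, which silences young LINE-1 elements, gave 0.08, 0.15 and 0.08 FPKM at 2 kPa and 0.31, 0.14 and 0.24 FPKM at 25 kPa. ZNF587, a silencer of HERV-K elements, gave 0.56, 0.72 and 0.85 FPKM at 2 kPa and 1.31, 0.69 and 1.38 FPKM at 25 kPa. In both the second stiff library fell back among the soft ones. ZNF282, known for binding the promoter of a human retrovirus, ranged from 0.01 to 4.24 FPKM within 2 kPa, wider than the difference between the means of the matrices. ZNF263 was counted without a KRAB box because the pattern did not find one. ZNF10, the source of the KRAB box used in engineered repressors, had a log2 fold change of -0.02, and ZNF263 and ZNF430 had 0.29 and 0.13.

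The corepressors through which KRAB proteins act were followed alongside. Of 37 listed 22 were in the table, and 0 had an adjusted p under 0.05 with limma (the smallest was 0.173). At an unadjusted p under 0.05, 3 were higher (13.6%, against 6.96% of all genes). Without overlap 2 were higher (9.09%, against 11.2% of all genes) and 0 lower (against 4.78%), so the 2 measures lay on either side of the whole table. These shares were not tested. In all, 19 of 22 stood higher on the stiff matrix, and their median log2 fold change was 0.171, where 59.6% of all genes were higher and their median was 0.048. The median of the corepressors was 0.065, 0.095 and 0.119 under the same 3 scalings, and it reached 0.302 without the second 2 kPa library. CBX1, the heterochromatin protein HP1 beta, gave 30.46, 30.10 and 29.74 FPKM at 2 kPa and 43.80, 38.67 and 47.59 FPKM at 25 kPa. Its groups did not overlap (log2 fold change 0.51, adjusted p = 0.173 with limma). CBX3 and CBX5, the other HP1 genes of the list, had log2 fold changes of 0.006 and -0.48. The 3 genes lower at 25 kPa were CBX5, SETDB2 (-0.44) and EHMT1 (-0.27). TRIM28 itself, to which the KRAB box binds, gave 148.92, 191.57 and 106.77 FPKM at 2 kPa and 158.51, 139.83 and 138.64 FPKM at 25 kPa, with a log2 fold change of 0.004. SETDB1, the methyltransferase recruited by TRIM28, gave 0.79, 0.74 and 1.6 FPKM at 2 kPa and 1.54, 1.55 and 1.19 FPKM at 25 kPa, and its groups overlapped. TRIM28 thus stood far above the level of any KRAB gene on this scale per length, and its level differed more among the soft libraries than between the matrices.

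Across the table, the median FPKM of a library ranged from 2.23 to 2.83, and no batch was named in the labels. Of 12 epithelial and colorectal markers 9 were in the table, with a summed level of 4507 to 4839 FPKM at 2 kPa and 3702 to 4878 FPKM at 25 kPa, nearly all of it from KRT18 and KRT19. Of these 9 markers 7 were lower at 25 kPa, as were 3448 of the 8529 genes of the table. KRT19, CDX2 and ASCL2 were lower without overlap (33.3% of the 9, against 4.78% of all genes). Their log2 fold changes were -0.49, -0.47 and -0.95 (adjusted p = 0.537, 0.224 and 0.0759 with limma). Of 8 fibroblast markers 3 were in the table, with a summed level of 0.31 to 1.11 FPKM over the 6 libraries. Of 8 immune markers 3 were, with 3.98 to 5.47 FPKM at 2 kPa and 2.39 to 3.59 FPKM at 25 kPa, most of it LYZ. The part of these markers in the ZNF values was not tested.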

How the data were processed

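RNA of SW480 cells on 2 kPa or 25 kPa hydrogels was sequenced in 3 libraries per stiffness. The authors deposited FPKM per gene symbol and library with 2 decimals, without pooling replicates. The submitters' processing notes name HISAT, StringTie, Bowtie2, RSEM and hg18 without roles, and whether counting used strand is not given in the sources used here. The study's methods name DESeq2, which needs counts and was not run. Every hundredth from 0.01 upwards occurred among the low values, so reads were not recovered and the depth is unknown. Libraries were assigned to groups by their titles and treatment labels.

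log2(FPKM + 1) of all 8529 genes was compared with limma 3.58.1 in R 4.3.3 (lmFit, eBayes with a variance trend, two-sided, Benjamini-Hochberg adjustment over all genes, threshold 0.05). Exact permutation of 3 against 3 libraries cannot go below p = 0.1 and was not used. Python 3.11.15, numpy 2.4.6, pandas 2.3.3 and matplotlib 3.10.9 were used. KRAB boxes and C2H2 fingers were found by pattern in translated GENCODE transcripts of GRCh38. The pattern can miss divergent boxes, and ZNF263 and ZNF394, for example, were counted without one. The group without a KRAB box may hold further such genes. GC content (8351 genes), transcript length and 50-base words came from the same transcripts, and promoters from RefSeq. Exons of 69 members overlap exons of another gene on the same strand, and those of 69 on the opposite strand.

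Genes named are the 10 members with the smallest p in each direction, the 5 with the highest mean and members of 4 role lists. All other members named were chosen after their values were seen. The members and lists were chosen with earlier results of these data known. Alternatives were pseudocounts of 0.1 and 0.01, mean FPKM filters of 0.5 and 1, 3 scalings, removal of the GC trend (lowess, span 0.3), eBayes with no trend, a replicate block, with and without GC removal, and leaving out each library. The programs were tested on simulated data.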

Additional observations from a re-analysis of the deposited data

How the results depend on the processing

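With limma, no ZNF gene and no KRAB corepressor had an adjusted p under 0.05 in any of the 11 alternatives or the 6 fits without 1 library, and the lowest adjusted p of the 20 genes with the smallest p was 0.1335, for ZNF224 without the third 2 kPa library. Their 331 log2 fold changes under alternatives all kept the direction of the reported ones. Members higher at an unadjusted p under 0.05 (7 as reported) numbered 4 with equal library sums, 11 without the variance trend and 5 to 23 without 1 library, while the share of all genes at that level in either direction (10.2% as reported) was 8.15%, 10.6% and 7.29% to 11.7%. Members lower at that level (0 as reported) numbered 3 with equal sums, 2 after quantile normalisation, 1 after median centring and 0 to 3 without 1 library. After quantile normalisation 10.8% of all genes were at that level in either direction, and after median centring 9.16%. Members higher without overlap (17) numbered 9 at a mean FPKM of at least 1, 8 with equal sums and 21 to 54 without 1 library. Those lower without overlap (2) numbered 6 with equal sums, quantile normalisation and median centring and 6 to 8 without 1 library. Counting both directions, 8.87% of the members and 18.5% of all genes did not overlap with that filter. The shares were 6.39% and 13.1% with equal sums, 10.5% and 16.1% after quantile normalisation, and 11.4% and 14.9% after median centring. Without 1 library they ran from 12.8% to 27.9% for members and from 22.7% to 30.1% for all genes. With a pseudocount of 0.01 the median log2 fold change of all members was 0.19 and that of the KRAB genes 0.27. Same-numbered libraries of the 2 stiffnesses had correlations of 0.115, -0.267 and -0.125, and not every library correlated best with its own number, so the numbers were not taken to pair them. With the replicate number as a block, 8 members were higher and 1 lower at an unadjusted p under 0.05 (4.11%, against 8.36% of all genes). In that fit 3 genes of the table instead of 10 had an adjusted p under 0.05. With the replicate block and the GC trend removed, 4 members were higher and 1 lower at an unadjusted p under 0.05 (2.28%, against 8.69% of all genes). The causes of these shifts were not tested, except that fewer genes or libraries entered the filtered and reduced fits. The depth is unknown, and precision rests on 3 libraries per stiffness.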

Other observations

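Other families of C2H2 genes, with different symbols, gave values on either side of the ZNF genes. Of 23 ZBTB genes, whose proteins join fingers to a BTB domain, 69.6% stood higher on the stiff matrix, and their median log2 fold change was 0.078. Of 7 ZSCAN genes 6 were higher (median 0.103), of 4 ZKSCAN genes 3 (median 0.070) and of 10 ZFP genes 6 (median 0.083). With limma, 0 of these genes had an adjusted p under 0.05.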
